A study of Mus musculus with 17 samples.

Results

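The genes of the oligoadenylate synthetase (OAS) family were followed in mouse spleen after injection of RNA. The 8 members were taken by name from the deposited table of expression values: Oas1a, Oas1b, Oas1c, Oas1g, Oas2, Oas3, Oasl1 and Oasl2. They are 8 of 38340 named genes, and all 8 were among the 14012 genes that had at least 1 CPM in at least 2 libraries and were tested. CPM here is the authors' edgeR-normalised CPM, and 1 read stood for 0.0175 to 0.0431 CPM. The column sums of these values differed by group. They were 696096 to 748327 in vehicle and naive libraries and 1058770 to 1275800 with SLR10, SLR14 and poly(I:C). With pppNS they were 782210 to 1484240. The values are thus not scaled to the reads of the library alone, and CPM levels and folds carry this difference between groups. There were 3 libraries each for pppNS, for poly(I:C) (labelled polyIC), for SLR14 and for SLR10, 3 from naive, untreated mice and 2 from the jetPEI vehicle control. Every mouse carries the same strain label, CB57BL/6NCrl, and ages are not given in the sources used here. The treatment text, which is the same for every library and names the SLRs, describes 25 µg of RNA in complex with the polyethylenimine carrier in vivo-jetPEI (N/P ratio 8), given intravenously in 200 µl. How poly(I:C) and pppNS were given is not described apart from this, and the time from injection to collection is not stated. SLR10 and SLR14 are stem-loop RNAs that differ in the length of the stem. RIG-I, a sensor of RNA ends in the cytosol and the product of Ddx58, stands in the title of the series. Poly(I:C) is a man-made analogue of viral double-stranded RNA.

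OAS enzymes are sensors that bind double-stranded RNA and then join ATP into short adenylate chains with 2′-5′ links (2-5A). 2-5A acts as an antiviral second messenger that leads to RNA decay, which limits virus growth and also stops the cell's own translation. The genes are classic targets of interferon, since factors activated through the interferon receptor and the interferon regulatory factors bind GAAA-rich elements near their starts. In the mouse, Oas1 has been copied many times: Oas1a and Oas1g encode active synthetases, and Oas1b is the flavivirus resistance gene, whose reading frame ends early in most laboratory strains. Oas2 and Oas3 carry repeated OAS units. Oasl1 and Oasl2 encode OAS-like proteins with ubiquitin-like domains, of which Oasl2 makes 2-5A and Oasl1 does not.

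In the GENCODE vM21 annotation of GRCm38, the family lies in 2 clusters on chromosome 5. The Oas1-Oas2-Oas3 cluster, chr5:120730333-120921652, spans 191.32 kb and holds 10 family genes, and the Oasl cluster, chr5:114896936-114937915, spans 40.98 kb and holds 2. On the minus strand lie Oas2 (chr5:120730333-120749853), Oas3 (chr5:120753098-120777661), Oas1c (chr5:120800194-120812514), Oas1g (chr5:120876142-120887613) and Oas1a (chr5:120896256-120907521). On the plus strand lie Oas1b (chr5:120812635-120824163), which is annotated as a polymorphic pseudogene, Oasl2 (chr5:114896936-114912234) and Oasl1 (chr5:114923240-114937915). Oas1c and Oas1b start back to back with 120 bases between them.

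Upstream sequences are shown because 3 of the OAS1 starts hold the same interferon-type element, letter for letter. Promoter windows of RefSeq (GRCm38.p6, 250 bases before to 50 after each start) were at hand for 6 of the 8 members, and the windows of Oas1b and Oas2 were not analysed here. The interferon-stimulated response element was searched on both strands as GAAA, any 2 bases and GAAA again (in reverse TTTC, any 2 bases and TTTC). It stood in 4 of 6 member windows, those of Oas1a, Oas1g, Oas1c and Oas3, and in 3.44% of all 32851 windows. The shorter regulatory factor core AANNGAAA (reverse TTTCNNTT), which every such element also contains, stood in 5 of 6 member windows, with Oasl1 added, and in 23.9% of all windows. The Oasl2 window held neither string. The stretches printed below for Oas1a and Oas1g are nearly the same sequence, so their matches are not separate occurrences in either count. Capitals below mark the shared 16-base string in Oas1a (chr5:120907526-120907585, minus strand), Oas1g (chr5:120887614-120887673, minus strand) and the whole stretch between Oas1c and Oas1b (chr5:120812515-120812634, read on the Oas1c strand). In Oas3 (chr5:120777690-120777769, minus strand) they mark the longer element, and in Oasl1 (chr5:114923040-114923139, plus strand) the 3 shorter cores.
Oas1a: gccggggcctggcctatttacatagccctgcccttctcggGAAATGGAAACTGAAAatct
Oas1g: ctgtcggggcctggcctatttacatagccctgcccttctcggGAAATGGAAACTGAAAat
Oas1c to Oas1b: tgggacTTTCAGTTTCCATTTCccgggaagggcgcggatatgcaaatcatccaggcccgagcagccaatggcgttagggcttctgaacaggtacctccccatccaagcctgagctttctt
Oas3: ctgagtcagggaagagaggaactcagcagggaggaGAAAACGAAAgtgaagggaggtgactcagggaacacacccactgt
Oasl1: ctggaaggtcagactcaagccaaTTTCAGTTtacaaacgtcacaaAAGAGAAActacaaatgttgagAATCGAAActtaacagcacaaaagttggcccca

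The string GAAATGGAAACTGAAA ran from base -20 to -5 before the Oas1a start and from -18 to -3 before the Oas1g start. Between Oas1c and Oas1b it lay in reverse, at -114 to -99 from the Oas1c start. Counted from Oas1b in that gene's own direction, the same 16 bases ran from -22 to -7, so the Oas1b start has the string in the orientation and at nearly the distance seen before Oas1a and Oas1g. Of the 32851 windows, 7 held the string, and they belong to 5 of 27025 genes: Oas1a, Oas1g, Oas1c and the apolipoprotein L genes Apol9a and Apol9b. The search for this string and for the shorter core was chosen after the windows were seen, and Apol9a and Apol9b were named for it. With SLR10 the log2 level of Apol9a was 2.94 above vehicle (adjusted p = 0.000288) and that of Apol9b 2.64 (adjusted p = 0.030, limma). Of all tested genes, 20.2% were called higher with SLR10. Oas1c, which also has the string in its window, had the smallest rise of the members with SLR10 (log2 1.53). Whether the string has a part in these changes was not tested. A match is a string of letters and shows no binding.

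**Figure D1:**
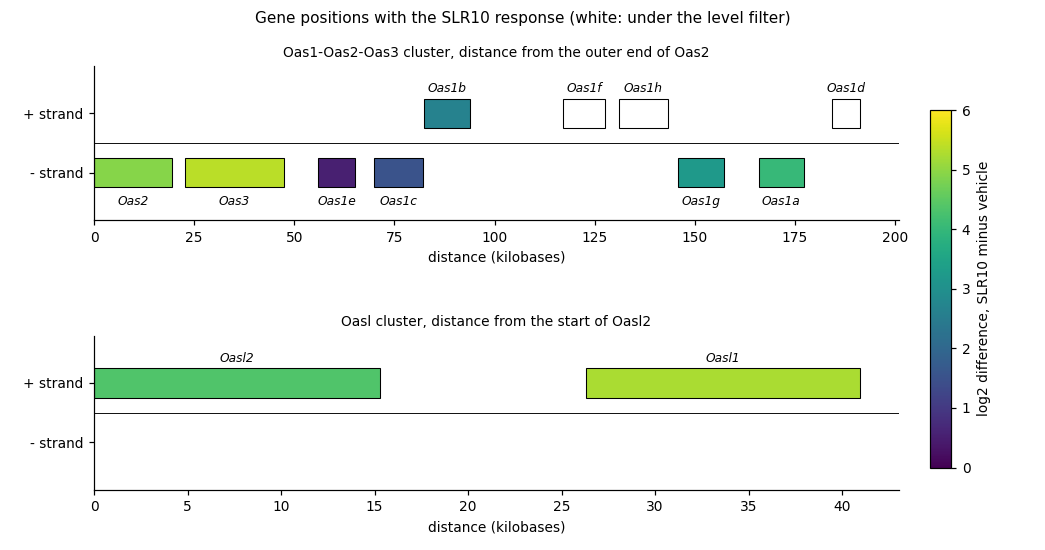
Positions of the family genes in both clusters on chromosome 5 (kilobases from the outer end of Oas2, above, or from the start of Oasl2, below; upper bars plus strand, lower bars minus strand), coloured by the log2 difference between SLR10 and vehicle, with genes under the level filter in white. Oas2, Oas3 and Oasl1 have the brightest colours (4.91, 5.37 and 5.24), while Oas1e (0.53) and Oas1c (1.53), which follow Oas3 on the minus strand, are dark.

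Reads per library ran from 26.5 M to 42.8 M, of which 15.8 M to 29.6 M lay in named genes. Nothing in the labels says more about the replicates than their numbers, so p-values measure the spread between these libraries. In limma that spread was pooled over all 6 groups, not taken from the groups compared alone. For Oas1a, SLR10 and pppNS thus had the same SE against vehicle (0.37), with SDs of 6.90 and 59.5 CPM. The stromal spleen markers Tlx1 and Nkx2-5 were detected in every library, with a summed level of 27.7 to 30.1 CPM in vehicle against 2.01 to 4.73 CPM with SLR10, SLR14 and poly(I:C). Transcripts of red cell precursors set 4 libraries apart. The sum over 8 erythroid genes was 5253 CPM in SLR14 replicate 2, 7913 and 3536 CPM in poly(I:C) replicates 2 and 3, and 4681 CPM in pppNS replicate 3. It was 1860 and 2079 CPM in the other pppNS libraries and 147 to 971 CPM in all the rest. The summed levels of the B cell, T cell, monocyte, conventional and plasmacytoid dendritic cell and red pulp macrophage markers were lower in every SLR10, SLR14 and poly(I:C) library than in every vehicle and naive library. Single genes did so in 6 of 8, 7 of 8, 3 of 5, 6 of 7, 3 of 5 and 2 of 6 cases in that order, and the rest overlapped. The overlapping genes did not all lean lower. For red pulp macrophages, Spic (74.5 to 102.8 against 59.2 to 75.4 CPM) and Vcam1 (306 to 387 against 218 to 321 CPM) leaned higher, and Hmox1 and Cd163 lower. The neutrophil sum was higher (417 to 1425 against 144 to 268 CPM), as were 4 of its 8 genes singly. The NK cell sum was also higher (98.7 to 159.6 against 58.0 to 87.9 CPM), with 2 of 5 genes higher and 1 lower. The part of these shifts in the results was not tested. In whole tissue, a change in RNA per cell and a change in the share of cells cannot be told apart.

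All 8 genes rose with each of the 4 RNAs. Against vehicle, 8 of 8 members were called higher in SLR10 spleens (20.2% of all tested genes were), in SLR14 (19.3%), poly(I:C) (18.6%) and pppNS spleens (2.95%), at an adjusted p under 0.05 in limma. The median member was higher by 4.19 (SLR10), 4.31 (SLR14), 4.03 (poly(I:C)) and 2.47 (pppNS) on the log2 scale, where the median of all tested genes was -0.01, 0.04, 0.07 and 0.01. All 4 comparisons share the same 2 vehicle libraries. With only pppNS and vehicle in the fit, so that the spread came from 5 libraries, 0 of 8 members and 0 genes passed for pppNS (adjusted p of the members 0.0880 to 0.339, log2 values as above), while edgeR called 8 of 8. With the 3 naive libraries as the control the count was again 8 of 8 for each RNA (25.7%, 24.7%, 24.9% and 6.06% of all genes). The 8 genes together made up 0.0312% of the reads in named genes in vehicle and 0.0222% in naive spleens. With SLR10, SLR14 and poly(I:C) they made up 0.522%, 0.548% and 0.484%, and with pppNS 0.241%, 0.117% and 0.168% in its 3 libraries.

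**Figure D2:**
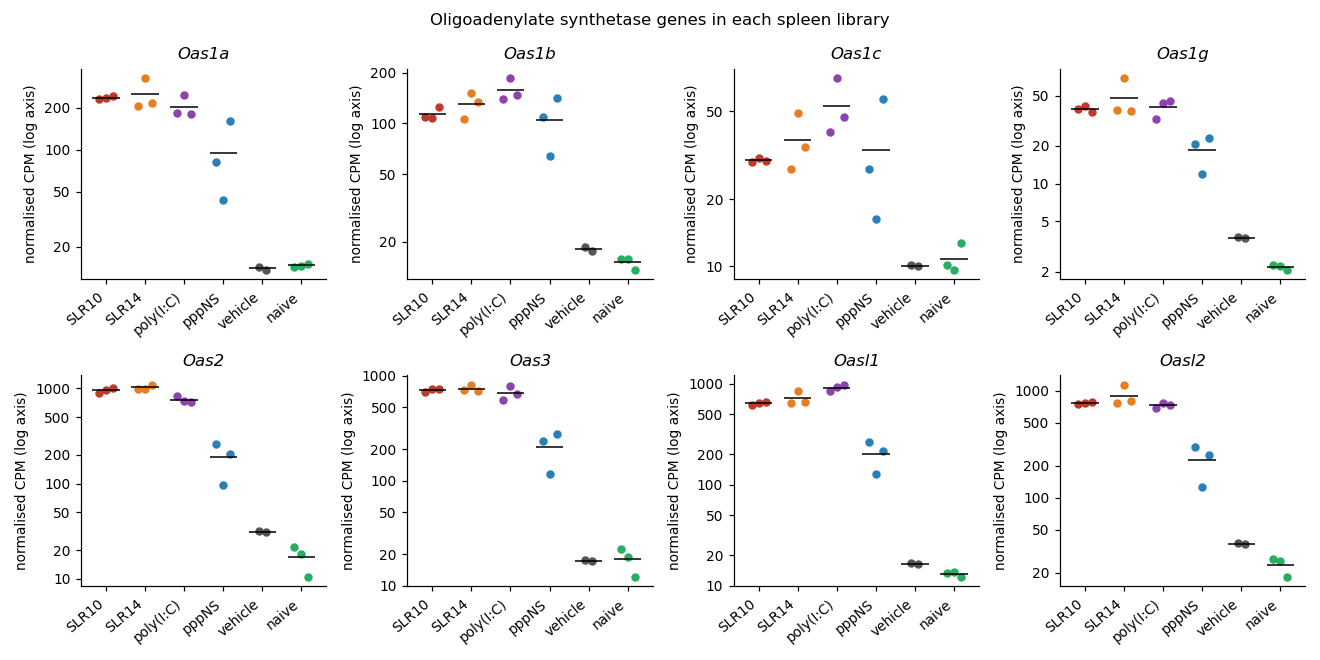
Normalised CPM of the 8 family genes in each of the 17 libraries (points, log axes) by treatment, with the group mean as a bar. The SLR10, SLR14 and poly(I:C) libraries lie above vehicle and naive for all 8 genes, and pppNS replicate 2 (the middle pppNS point) is the lowest pppNS library for each of them.

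Oas1a, an active synthetase, stood at 14.3 and 13.7 CPM in vehicle and at 14.3, 14.7 and 15.2 CPM in naive spleens. It reached 229.6, 234 and 243 CPM with SLR10, 205, 326 and 217 CPM with SLR14, 183, 245 and 180.2 CPM with poly(I:C), and 81.5, 43.4 and 160.1 CPM with pppNS. Every RNA library was above every control library, and no pppNS library reached the lowest of the other RNAs. The rise over vehicle was 16.2-fold with SLR10 (log2 4.02, SE 0.37, adjusted p = 1.73e-06), 16.8-fold with SLR14 (adjusted p = 1.53e-06), 13.9-fold with poly(I:C) (adjusted p = 3.29e-06) and 5.74-fold with pppNS (log2 2.52, SE 0.37, adjusted p = 0.00127). Folds here and below are ratios on the scale of CPM + 0.5 from limma.

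Oas1g, the other active OAS1 copy described here, was the least expressed member in the controls, at 3.74 and 3.67 CPM in vehicle and 2.24, 2.20 and 2.07 CPM in naive spleens. It stood at 39.0, 41.1 and 37.1 CPM with SLR10, at 38.5, 68.9 and 37.6 CPM with SLR14, at 32.7, 43.6 and 45.6 CPM with poly(I:C) and at 20.7, 11.8 and 23.0 CPM with pppNS. The pppNS libraries again lay between the controls and the other RNAs without overlap. The log2 rise over vehicle was 3.23 for SLR10, 3.48 for SLR14, 3.27 for poly(I:C) and 2.12 for pppNS (SE 0.28 each, adjusted p 5.49e-07 to 0.000606). Oas1a and Oas1g are near-copies: 57.6% of the 50-base stretches of the Oas1a transcripts also occur in Oas1g, and 45.2% of those of Oas1g in Oas1a. How reads that fit both genes were counted is not stated, so the split between them is uncertain. For the other 6 members the share of stretches found in any other gene was 9.82% for Oas1c, 2.78% for Oas1b and under 0.4% for the rest.

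Oas1b, the flavivirus resistance gene, showed the narrowest span of responses. Its level was 18.5 and 17.5 CPM in vehicle and 15.7, 15.8 and 13.6 CPM in naive spleens. It was 109.6, 108 and 125 CPM with SLR10, 106, 152 and 134 CPM with SLR14, 140.1, 185 and 147 CPM with poly(I:C), and 109, 64.6 and 142 CPM with pppNS. Here 2 of the 3 pppNS libraries lay within the range of the SLR10 and SLR14 libraries. The log2 rise over vehicle was 2.63, 2.81, 3.08 and 2.44 in the order SLR10, SLR14, poly(I:C) and pppNS (SE 0.26 each, adjusted p 7.69e-07 to 9.93e-05).

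Oas1c, whose start faces that of Oas1b, rose least. Its level was 10.1 and 9.95 CPM in vehicle and 10.1, 9.62 and 12.7 CPM in naive spleens. It was 29.4, 30.8 and 29.8 CPM with SLR10, 27.3, 48.8 and 34.6 CPM with SLR14, 40.1, 70.5 and 47.2 CPM with poly(I:C), and 27.5, 16.3 and 56.8 CPM with pppNS. All RNA libraries were above all control libraries. In each of the SLR14, poly(I:C) and pppNS groups the highest value was in the library with the most erythroid transcripts (SLR14 replicate 2, poly(I:C) replicate 2 and pppNS replicate 3), and the part of those cells was not tested. The same 3 libraries were the highest of their groups for Oas1a, Oas1b and Oas3. The rise over vehicle was 2.89-fold with SLR10 (log2 1.53, SE 0.39, adjusted p = 0.00598), 3.45-fold with SLR14 (adjusted p = 0.00217), 4.90-fold with poly(I:C) (adjusted p = 0.000365) and 2.84-fold with pppNS (log2 1.51, SE 0.39, adjusted p = 0.0426). The pppNS call of Oas1c was lost without pppNS replicate 1 (adjusted p = 0.0588), pppNS replicate 3 (0.0717), vehicle replicate 1 (0.230) or vehicle replicate 2 (0.289).

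Oas2, which encodes a synthetase with repeated OAS units, had 31.5 and 31.0 CPM in vehicle and 21.7, 18.0 and 10.5 CPM in naive spleens. Its level was 896, 967 and 1006 CPM with SLR10, 998, 986 and 1085 CPM with SLR14, 827, 731 and 724 CPM with poly(I:C), and 263, 95.9 and 207 CPM with pppNS. Every SLR10 and SLR14 library was above every poly(I:C) library, and pppNS lay lower with no overlap. The rise over vehicle was 30.1-fold with SLR10 (log2 4.91, SE 0.34, adjusted p = 1.61e-07), 32.2-fold with SLR14 (adjusted p = 1.27e-07), 23.9-fold with poly(I:C) (adjusted p = 2.72e-07) and 5.48-fold with pppNS (log2 2.45, SE 0.34, adjusted p = 0.000833).

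Oas3, the largest synthetase of the family, had the steepest rise over vehicle of the 2-5A makers, while over naive spleens that of Oas2 was steeper with SLR10 (log2 5.85 against 5.37), SLR14 and poly(I:C). It stood at 17.4 and 17.1 CPM in vehicle and 22.3, 18.9 and 12.2 CPM in naive spleens. It reached 705, 746 and 747 CPM with SLR10, 727, 814 and 714 CPM with SLR14, 581, 797 and 667 CPM with poly(I:C), and 239.9, 116 and 277 CPM with pppNS. The SLR10, SLR14 and poly(I:C) libraries overlapped one another, and the pppNS libraries lay between them and the controls. The rise over vehicle was 41.3-fold with SLR10 (log2 5.37, SE 0.31, adjusted p = 3.75e-08), 42.4-fold with SLR14 (adjusted p = 3.28e-08), 38.2-fold with poly(I:C) (adjusted p = 4.68e-08) and 11.2-fold with pppNS (log2 3.48, SE 0.31, adjusted p = 2.05e-05).

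Oasl1, the OAS-like protein without synthetase activity and known as a brake on translation of Irf7, had the smallest p-value of the family in each comparison with vehicle. Its level was 16.7 and 16.2 CPM in vehicle and 13.2, 13.7 and 12.3 CPM in naive spleens. It was 612, 650.1 and 660.0 CPM with SLR10, 645, 851 and 666 CPM with SLR14, 849, 924 and 976 CPM with poly(I:C), and 264, 129 and 219 CPM with pppNS. Poly(I:C) libraries were highest, although the lowest of them (849 CPM) lay just under SLR14 replicate 2 (851 CPM). The rise over vehicle was 37.8-fold with SLR10 (log2 5.24, SE 0.23, adjusted p = 2.72e-09), 42.2-fold with SLR14 (adjusted p = 1.93e-09), 54.0-fold with poly(I:C) (adjusted p = 2.89e-09) and 11.5-fold with pppNS (log2 3.53, SE 0.23, adjusted p = 2.72e-06). By size of log2 change, Oasl1 ranked 40, 39, 20 and 37 among the 14012 tested genes in these comparisons. The antisense gene Gm13822 overlaps the start of Oasl1 and was also called higher with SLR10 (log2 2.46), SLR14 (3.01) and poly(I:C) (2.93). The libraries were stranded per the labels, but the strand setting of the counting is not stated, so reads of the overlap cannot be told apart.

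Oasl2, the OAS-like synthetase, was the most abundant member in vehicle by CPM, at 37.5 and 37.1 CPM, with 26.8, 25.7 and 18.3 CPM in naive spleens. It reached 757, 773 and 783 CPM with SLR10, 766, 1128 and 793 CPM with SLR14, 692, 764 and 738 CPM with poly(I:C), and 297, 127 and 252 CPM with pppNS. All pppNS libraries lay below all libraries of the other RNAs and above all controls. The log2 rise over vehicle was 4.35 for SLR10, 4.54 for SLR14, 4.27 for poly(I:C) and 2.49 for pppNS (SE 0.29 each, adjusted p 8.58e-08 to 0.000229).

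**Figure D3:**
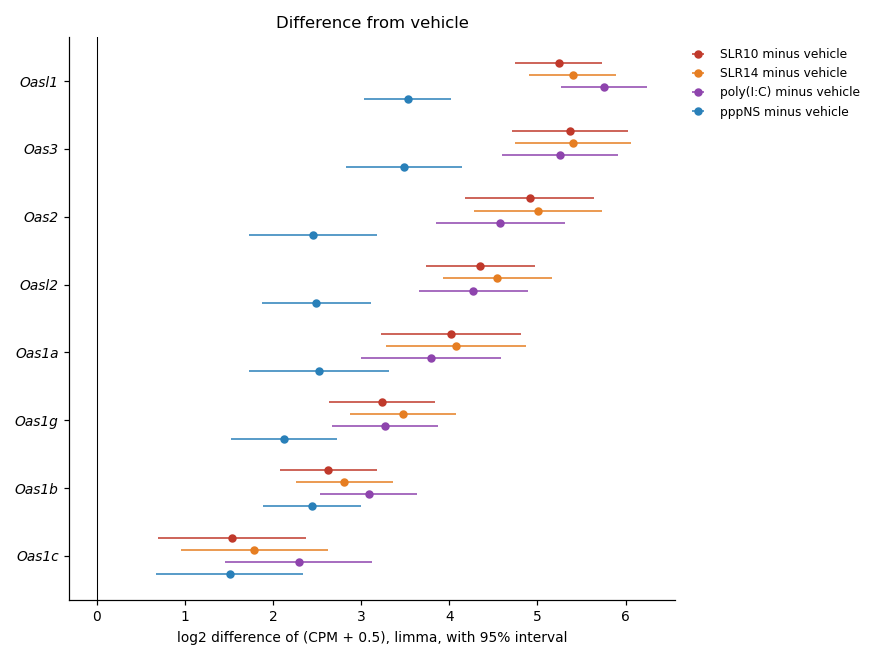
Log2 difference of each RNA from vehicle for the 8 family genes on the scale of log2(CPM + 0.5), as points with 95% intervals from limma. Points of Oasl1 and Oas3 lie above 5 for SLR10, SLR14 and poly(I:C) and near 3.5 for pppNS. The intervals of all 4 RNAs overlap for Oas1c, Oas1b and, narrowly, Oas1a.

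Of 3 other genes that bear on 2-5A, Abce1 and Pde12 were called higher with SLR10, SLR14 and poly(I:C) (20.2%, 19.3% and 18.6% of all tested genes were). With pppNS the count was 0 of 3 (0 also at an unadjusted p under 0.05, and 0 in edgeR). That is near the share of all tested genes, of which 2.95% were called higher and 23.2% had an unadjusted p under 0.05 with pppNS. Abce1, a ribosome recycling factor known to curb the 2-5A pathway, averaged 79.2 ± 2.53 CPM in vehicle (SD, n = 2) and 168 ± 4.07 CPM with SLR10 (n = 3). Its log2 rise was 1.08 with SLR10 (adjusted p = 7.39e-05), 0.97 with SLR14 and 0.92 with poly(I:C), against a value of 0.18 with pppNS (adjusted p = 0.442). Pde12, a phosphodiesterase that degrades 2-5A, averaged 14.9 ± 0.744 CPM in vehicle and 20.3 ± 1.03 CPM with SLR10. Its log2 rise was 0.43 with SLR10 (adjusted p = 0.0163), 0.41 with SLR14 and 0.65 with poly(I:C), against 0.14 with pppNS. The Pde12 call was lost with SLR10 without SLR10 replicate 2 or 3 or either vehicle library (adjusted p 0.0518 to 0.128). With SLR14 it was lost without SLR14 replicate 1 or 3 or either vehicle library (0.0524 to 0.158) and under quantile scaling (0.0733). Quantile scaling also ended the Abce1 calls with SLR14 (0.37, adjusted p = 0.107) and poly(I:C) (0.26, adjusted p = 0.263). When CPM was rescaled to the reads in named genes alone, neither gene was called with any RNA, and Pde12 came to -0.06 with SLR10 and -0.14 with SLR14. Akap7, which holds a 2′-5′ phosphodiesterase domain, was not called against vehicle (log2 -1.26 with SLR10, adjusted p = 0.0562), but 7 alternatives called it lower with SLR10 (adjusted p 2.5e-05 to 0.0499), edgeR (0.0396) and naive as control (0.0136) among them. With SLR14 it was called lower when rescaled to named genes (adjusted p = 0.0217) and without the 4 libraries rich in erythroid transcripts (-1.17, adjusted p = 0.000447). Its highest values, 22.5 CPM each, were in poly(I:C) replicate 2 and pppNS replicate 3, libraries rich in erythroid transcripts.

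Each member was compared between RNAs in 6 pairs, with p adjusted over all genes within a pair. The stem-loop RNAs were compared with each other at the same stated dose by mass (25 µg). They differ in stem length, so equal mass need not mean equal numbers of molecules. No member was called between SLR14 and SLR10 in limma (0 of 8, 0 at an unadjusted p under 0.05, and 0 in edgeR), and 0% of all genes were called (89 of 14012 had an unadjusted p under 0.05). The differences lay between 0.03 (Oas3) and 0.25 (Oas1c and Oas1g) on the log2 scale. Their 95% intervals reached from -0.66 (Oas1a) to 1.00 (Oas1c), the upper bound being a fold of 2.00. For Oasl1, the most precise, the interval was -0.28 to 0.60. SLR14 replicate 2 was the highest of its group for 7 of the 8 members (all but Oas2). Without it the differences of Oas1a, Oas1g and Oas3 were -0.16, -0.04 and -0.02. A difference that misses the threshold does not show that both RNAs act alike.

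Against poly(I:C), no member was called for SLR10 (0 of 8, 1.92% of all genes called) or for SLR14 (0 of 8, 1.31%). At an unadjusted p under 0.05 there were 2 members for SLR10, Oas1c and Oasl1, and 0 for SLR14, where 20.3% and 11% of all genes reached it, and edgeR called 0 in both. Every SLR10 library was below every poly(I:C) library for Oasl1, with a log2 difference of -0.51 (95% interval -0.95 to -0.08, adjusted p = 0.191). Oas1c differed by -0.76 (interval -1.51 to -0.01, adjusted p = 0.241) and Oas1b by -0.46 (interval -0.95 to 0.04, adjusted p = 0.283), both without overlap between libraries. Oas2 pointed the other way, at 0.33 for SLR10 (interval -0.32 to 0.98, adjusted p = 0.602) and 0.43 for SLR14 (interval -0.22 to 1.08, adjusted p = 0.695), again without overlap. Oasl2 also lay above every poly(I:C) library with SLR14 (0.27, adjusted p = 0.790). Lack of overlap in the direction of Oas2 and Oasl2 was common. Above every poly(I:C) library lay 18.3% of all tested genes with SLR10 and 8.87% with SLR14. The share that lay below, the direction of Oasl1, Oas1c and Oas1b with SLR10, was not counted. The lack of overlap of those genes therefore has no background share here. The ratio of Oasl1 to Oasl2 CPM was 1.21 to 1.32 in the poly(I:C) libraries, 0.754 to 0.843 in the SLR10 and SLR14 libraries, 0.868 to 1.02 with pppNS and 0.437 to 0.669 in the controls. No test was run on this ratio.

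Against pppNS, 6 of 8 members were called higher with SLR10 (20.4% of all genes were), with SLR14 (17.5%) and with poly(I:C) (15.4%). In all 3 comparisons the 6 were Oas1a, Oas1g, Oas2, Oas3, Oasl1 and Oasl2. Oas2 had the widest gap with the stem-loop RNAs, at 5.49-fold with SLR10 (log2 2.46, SE 0.30, adjusted p = 4.88e-05) and 5.88-fold with SLR14 (adjusted p = 4.16e-05). With poly(I:C) the widest was that of Oasl1, at 4.68-fold (log2 2.23, SE 0.20, adjusted p = 7.63e-06). Oas1a was 2.83-fold, 2.94-fold and 2.41-fold higher with SLR10, SLR14 and poly(I:C), and Oas1g 2.16-fold, 2.56-fold and 2.22-fold. These comparisons share the 3 pppNS libraries.

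Oas1b and Oas1c, the pair that starts back to back, were the members not called against pppNS, except that median-of-ratios scaling called Oas1b for poly(I:C) (0.65, adjusted p = 0.0496). Oas1b differed by 0.19 with SLR10 (95% interval -0.31 to 0.68, adjusted p = 0.532), 0.37 with SLR14 (-0.13 to 0.86, adjusted p = 0.232) and 0.64 with poly(I:C) (0.15 to 1.13, adjusted p = 0.0529). Oas1c differed by 0.03 with SLR10 (-0.72 to 0.77, adjusted p = 0.959), 0.28 with SLR14 (-0.47 to 1.03, adjusted p = 0.548) and 0.78 with poly(I:C) (0.04 to 1.53, adjusted p = 0.113). Part of this depended on pppNS replicate 3, the library with the most erythroid transcripts of its group, which had the highest pppNS value of both genes (142 and 56.8 CPM). Without it, both were called higher with SLR14 (log2 0.62 and 0.75, adjusted p = 0.0314 and 0.0464) and with poly(I:C) (0.89 and 1.25, adjusted p = 0.00513 and 0.00354), and neither with SLR10 (0.44 and 0.49, adjusted p = 0.104 and 0.160). Leaving out pppNS replicate 2, the lowest pppNS library for both genes, moved the differences the other way. With SLR10 they were then -0.13 for Oas1b (adjusted p = 0.575) and -0.39 for Oas1c (adjusted p = 0.313). With SLR14 that of Oas1c was -0.14 (adjusted p = 0.737). With all 4 libraries rich in erythroid transcripts left out, Oas1c alone of the pair was called with SLR10 (0.49, adjusted p = 0.0486), neither with SLR14 and both with poly(I:C). The ratio of Oas1b to Oas3 CPM in each pppNS library lay apart from that of every other group, at 0.455, 0.556 and 0.513, against 0.145 to 0.187 with SLR10 and SLR14, 0.221 to 0.241 with poly(I:C), 1.03 and 1.07 in vehicle and 0.705 to 1.12 in naive spleens. No test was run on this ratio. With only the 2 groups of a comparison in the fit, 4 of 8 members were called against pppNS for SLR14 and for poly(I:C), where Oas1a and Oas1g were lost.

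**Figure D4:**
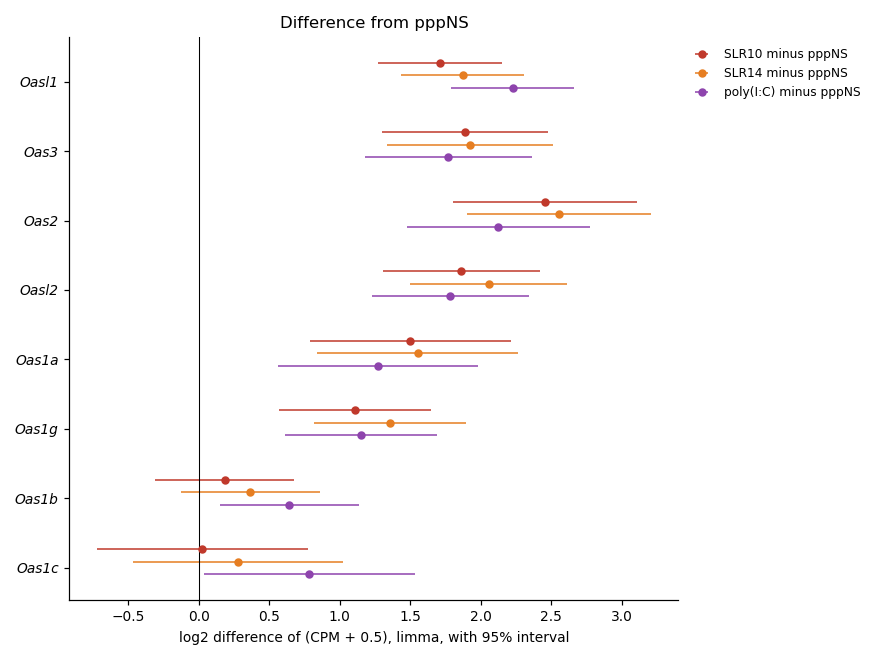
Log2 difference of SLR10, SLR14 and poly(I:C) from pppNS for the 8 family genes on the scale of log2(CPM + 0.5), as points with 95% intervals from limma. Oas2 lies farthest to the right for the stem-loop RNAs (2.46 and 2.55), and the SLR10 and SLR14 intervals of Oas1b and Oas1c cross 0.

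Vehicle was compared with naive spleens for the effect of the control injection. No member was called in limma (0 of 8, where 0.05% of all genes were called), 3 had an unadjusted p under 0.05 (9.02% of all genes did), and edgeR called 0. The 3 were Oas2, at 31.5 and 31.0 against 10.5 to 21.7 CPM (log2 0.94, 95% interval 0.21 to 1.67, adjusted p = 0.491), Oas1g (0.66, interval 0.05 to 1.26, adjusted p = 0.538) and Oasl2 (0.67, interval 0.05 to 1.29, adjusted p = 0.543). Their vehicle libraries were all higher than the naive ones, and the same held for Oas1b and Oasl1 (5 of 8 members, against 24.9% of all genes). Oas1g passed (adjusted p = 0.0364) when the 4 libraries rich in erythroid transcripts were left out of the fit, none of which is a vehicle or naive library. In that fit 1979 of 14012 genes passed. The vehicle libraries were close to each other for every member but differed in their erythroid sum (234 and 420 CPM), so they were kept as 2 samples.

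Levels of different genes were compared per kilobase of exon. In vehicle the order was Oas1b (9.05 ± 0.343 CPM per kb, SD, n = 2), Oas1a (7.44 ± 0.223), Oas2 (7.03 ± 0.0813), Oasl1 (6.31 ± 0.138), Oasl2 (5.85 ± 0.0506), Oas1c (4.18 ± 0.0541), Oas3 (2.44 ± 0.0293) and Oas1g (1.58 ± 0.0192). With SLR10 Oasl1 led (246 ± 9.76 CPM per kb, n = 3), followed by Oas2 (215 ± 12.5), Oas1a (125 ± 3.66), Oasl2 (121 ± 2.06), Oas3 (104 ± 3.35), Oas1b (57.3 ± 4.64), Oas1g (16.7 ± 0.858) and Oas1c (12.5 ± 0.295). The neighbours Oas1a and Oasl2 differed by about their spread, and the other neighbours by more than it. With poly(I:C) Oasl1 stood at 351 ± 24.4 CPM per kb and Oas2 at 171 ± 12.9, and with pppNS at 78.1 ± 26.3 and 42.4 ± 19.1, where Oas1b (52.9 ± 19.5) and Oas1a (50.4 ± 31.6) lay within the spread of Oas2. As a share of the 8 genes' CPM per kb, Oas1b went from 20.6% in vehicle to 6.39% with SLR10, 8.22% with poly(I:C) and 17.2% with pppNS. Oasl1 went from 14.4% to 27.4%, 36.7% and 25.8%. Exon lengths were taken from all annotated exons of a gene, which sets the scale of these orders. How reads that fit both Oas1a and Oas1g were counted is not stated. The levels of both genes, their places in these orders and the shares are uncertain for that reason.

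Of the other OAS1 copies, only Oas1e passed the level filter. Oas1d, known from oocytes, reached 0.204 CPM at most (7 reads), and Oas1f and Oas1h had 0 or 1 read in every library. Oas1e stood at 0.0790 and 0.0596 CPM in vehicle, 3 reads in each library and so at the limit that a count of 0 allows. It was 0.216 to 0.437 CPM with SLR10, 0.344, 4.09 and 0.646 CPM with SLR14, 0.367, 8.74 and 4.80 CPM with poly(I:C), and 1.79, 0.764 and 3.77 CPM with pppNS. In the SLR14, poly(I:C) and pppNS groups its highest library was the one with the most erythroid transcripts. In limma it was called with poly(I:C) alone (log2 2.62, adjusted p = 0.0248), a size that depends on the pseudocount (4.01 with 0.1 and 1.43 with 2), and edgeR also called it with SLR14 (adjusted p = 0.0214). With the 4 libraries rich in erythroid transcripts left out, the value with poly(I:C) was 0.61 and not called, while SLR14 (0.79, adjusted p = 0.0295) and pppNS (1.58, adjusted p = 0.00224) were called. With SLR10 it was called in the fit of 2 groups only (adjusted p = 0.0278). The poly(I:C) call was also lost without poly(I:C) replicate 2 (1.91) or 3 (2.31) or either vehicle library, without the level filter and in the fit of 2 groups only.

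**Figure D5:**
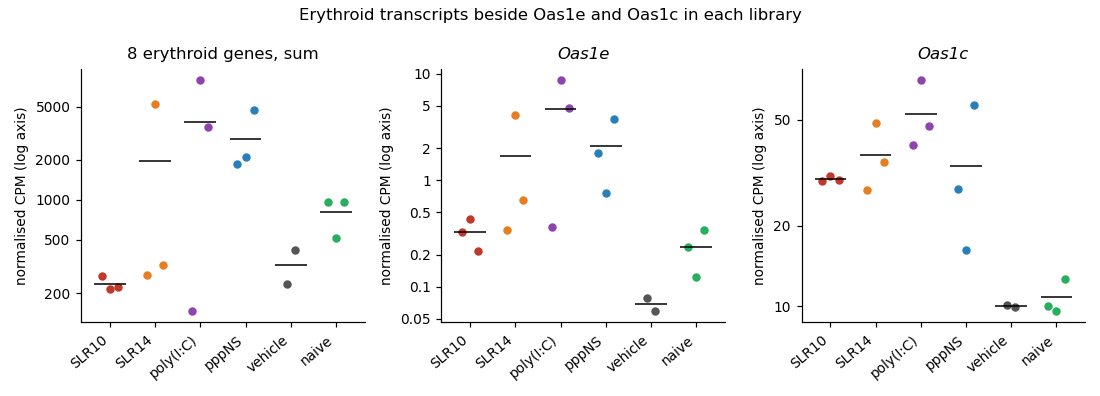
Summed normalised CPM of 8 erythroid genes beside Oas1e and Oas1c in each of the 17 libraries (points, log axes; bars are group means). SLR14 replicate 2, poly(I:C) replicate 2 (the middle points) and pppNS replicate 3 (the right point) are the highest of their groups in all 3 panels.

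The genes beside the clusters were not called higher. Of the 3 nearest protein-coding genes on each side of both clusters, 10 of 12 were found in the table, 7 passed the level filter and 0 were called higher than vehicle with any RNA in limma, nor were any higher at an unadjusted p under 0.05; edgeR values were not examined for these genes. The share of all tested genes called higher was 20.2% (SLR10), 19.3% (SLR14), 18.6% (poly(I:C)) and 2.95% (pppNS). For 7 genes, a count of 0 is not far from these shares. Rasal1, next but one to Oas2, fell with SLR10 (log2 -0.55), SLR14 (-0.89) and poly(I:C) (-1.04), and so did 2210016L21Rik, next to Oasl1 (-0.84, -0.93 and -0.72). Both were called lower with these RNAs, as were 19.2%, 19.4% and 17.3% of all tested genes in the same order. Dtx1, which encodes a Notch pathway ligase and is the nearest gene to Oas2, fell with poly(I:C) (-1.70) and was not called with SLR10 (-0.05).

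Beside the OAS family, 10 genes of nucleic acid sensing were counted, most of them sensors and effectors of double-stranded RNA, with their adaptors and a DNA sensor. With each of the 4 RNAs, 8 of 10 were called higher than vehicle. Among all tested genes the share was 20.2% (SLR10), 19.3% (SLR14), 18.6% (poly(I:C)) and 2.95% (pppNS). With poly(I:C) 1 was called lower (Ticam1, an adaptor of Toll-like receptor 3, at -0.49 with adjusted p = 0.0497), as were 17.3% of all tested genes. The 4 with the smallest adjusted p for SLR10 were the Z-nucleic-acid sensor Zbp1 (log2 5.02), Ifih1, the sensor of long double-stranded RNA known as MDA5 (4.71), Mb21d1, the DNA sensor cGAS (3.19), and Dhx58, a relative of RIG-I (3.91). With pppNS these stood 2.22, 2.78, 1.61 and 2.50 above vehicle, all called. Mavs, the adaptor of RIG-I and MDA5, was not called with any RNA (-0.71 to -0.27). The list median was 3.07 for SLR10, 3.14 for SLR14, 3.54 for poly(I:C) and 1.55 for pppNS, where that of all tested genes was -0.01, 0.04, 0.07 and 0.01.

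Of 11 interferon signalling genes, 6 were called higher than vehicle with SLR10, SLR14 and pppNS (20.2%, 19.3% and 2.95% of all tested genes were). With poly(I:C) 7 were (18.6% of all), and 0 were called lower with any RNA. The median of this list was 1.28 for SLR10, 1.42 for SLR14, 1.65 for poly(I:C) and 1.10 for pppNS. The leading 4 for SLR10 were Irf7, the amplifier of interferon production (log2 4.45), Usp18, which removes ISG15 and damps receptor signalling (5.36), Irf1 (3.29) and the feedback inhibitor Socs1 (5.29). With pppNS they were higher by 2.76, 4.09, 1.47 and 2.98. The receptor gene Ifnar1 (0.14 with SLR10) and Irf3 (0.15), a factor activated without new synthesis, were not called with any RNA against vehicle.

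The genes whose pattern over the 17 libraries was most like that of a member were named by Pearson's r of log2(CPM + 0.5), as a description with no test, since all genes share libraries and groups. The closest were Parp10 for Oas1a (r = 0.995), Parp12 for Oas1g (0.996), Ifit1 for Oas1b (0.994), Trim30a for Oas2 (0.996), Dhx58 for Oas3 (0.996), Irf7 for Oasl2 (0.997) and the gene model Gm6548 for Oasl1 (0.998), followed by Irgm1 (0.998). For Oas1c the closest was Sh3glb1 (0.984), which differed from vehicle by 0.95, 1.24, 1.49 and 0.86 on the log2 scale in the order SLR10, SLR14, poly(I:C) and pppNS. Between members, r ran from 0.845 for Oas1c with Oas2 to 0.996 for Oas2 with Oasl2.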

How the data were processed

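RNA was measured in 17 mouse spleen libraries, made as stranded mRNA libraries from 500 ng per the labels. The submitters' processing notes list FastQC, edgeR, HTSeq, SAMtools 1.4, TopHat and TopHat2 2.0.6, and as builds mm10 and GRCm38; the role of each tool, the annotation and whether counting used strand are not given in the sources used here. The deposited values, named edgeR-normalised CPM by the authors, were treated as a signal because column sums run from 696096 to 1484240. In each column 100.0% of the values were whole multiples of 1 step (within 0.01 reads), which gave back the reads for edgeR. From 39184 lines, those with no name (5), with the name #N/D (699) or with a date as name (27) were dropped, as were 113 extra lines of 87 names that occur more than once (the line with the highest sum was kept). Reads on lines without a gene name made up 28.1% to 46.1% of a library.

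The test was limma 3.58.1 (R 4.3.3) on log2(CPM + 0.5) for 14012 genes (1 CPM or more in 2 or more libraries). A single fit held all 6 groups with a mean-variance trend, and p was adjusted by Benjamini-Hochberg over these genes, with 0.05 as the threshold. Where no tool is named, adjusted p, SE and 95% intervals come from this limma fit. The procedure was tested on simulated data with the same spread set for all genes and groups. That cannot show how it handles groups of unequal spread. Alternatives changed the pseudocount (0.1, 2), the filter (none, 5 CPM), the scaling (quantile, median of ratios), the test (edgeR 4.0.16 on the reads), the samples (only the 2 groups compared, naive as control, each replicate left out) or added a replicate block. Chosen after seeing the data were a rescaling to reads in named genes and the removal of SLR14 replicate 2, poly(I:C) replicates 2 and 3 and pppNS replicate 3. Members, lists and rules were chosen with earlier results of these data known.

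Named were all members, Abce1, Pde12 and Akap7 of the 2-5A pathway, the other OAS1 copies (4), the 4 genes with the smallest adjusted p for SLR10 in each of the sensing and signalling lists, neighbours, and the genes most like each member. Other genes of these lists, Gm13822 and Apol9a and Apol9b were named after their values were seen. Positions and exon lengths are from GENCODE vM21, and shared sequence was counted in stretches of 50 bases of its transcripts. Some genes of the lists are not reported here and were left out of the list counts.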

Additional observations from a re-analysis of the deposited data

How the results depend on the processing

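Against vehicle, 8 of 8 members were called with SLR10, SLR14 and poly(I:C) under every alternative run. With pppNS the count was 0 with only the 2 groups compared, 7 without the level filter and 7 to 8 with a replicate left out. Against naive, vehicle had 0 members called with any replicate left out and 1, Oas1g, with the 4 libraries rich in erythroid transcripts left out. Against pppNS the count was 6 to 8 for SLR14 and for poly(I:C) with a replicate left out, 8 of 8 in each without pppNS replicate 3, and 6 throughout for SLR10. Deviations of libraries with equal replicate numbers had a median correlation of 0.030 over 40 pairs (-0.519 to 0.800). With different numbers it was -0.028 over 80 pairs (-0.879 to 0.720). With 2 or 3 libraries in a group, these values cannot decide whether libraries with equal numbers were paired. With a replicate block, 7 of 8 members were called for pppNS, Oas1c being lost (log2 1.41, adjusted p = 0.0754).

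The number of all genes called moved more: 3766 to 9904 for SLR10 against vehicle, 3703 to 7879 for SLR14, 3262 to 6496 for poly(I:C), 0 to 2229 for pppNS and 0 to 1979 for vehicle against naive. Between RNAs it was 0 for SLR14 against SLR10 in all settings, 59 to 1528 for SLR10 and 0 to 215 for SLR14 against poly(I:C), and 3897 to 7525, 1351 to 7098 and 727 to 5566 for SLR10, SLR14 and poly(I:C) against pppNS. Scaling to the reads in named genes moved the median of all genes to -0.49, -0.50, -0.52 and -0.33 against vehicle for SLR10, SLR14, poly(I:C) and pppNS, and that of the members to 3.70, 3.76, 3.43 and 2.13.

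Differences near 0 changed sign in places, and the cause was not tested. Against vehicle, that scaling gave -0.0572 (SLR10), -0.142 (SLR14) and -0.200 (pppNS) for Pde12, -0.0567 for Akap7 with poly(I:C) and -0.165 for Abce1 with pppNS. Abce1 with pppNS was -0.133 under quantile scaling, and Akap7 with poly(I:C) -0.144 without the 4 erythroid-rich libraries. For vehicle against naive, Oas3 came to 0.00991 (median-of-ratios scaling), 0.0292 (quantile), 0.115 (named genes), 0.00816 (without vehicle replicate 2), 0.0586 (without naive replicate 2) and -0.247 to 0.177 over all replicates left out. Oas1a came to 0.00282 with the replicate block and 0.0480 scaled to named genes, and Oas1c to 0.0107 (block), 0.0262 (named genes) and -0.163 to 0.0285 with a replicate left out. For SLR14 against SLR10, quantile scaling gave -0.0147 for Oas2 and -0.0354 for Oas3, scaling to named genes -0.00795 for Oas1a and -0.0246 for Oas3, and leaving out SLR14 replicate 2, alone or with the other erythroid-rich libraries, -0.156, -0.0377 and -0.0243 for Oas1a, Oas1g and Oas3, whose highest values with another replicate left out were 0.176, 0.396 and 0.0709. For Oas1g, SLR10 against poly(I:C) gave 0.0467 (quantile), 0.0370 (edgeR), 0.0749 (named genes), -0.189 to 0.0474 (with a replicate left out; 0.0157 without poly(I:C) replicate 2) and 0.253 (erythroid-rich left out), and SLR14 against poly(I:C) -0.0798 to 0.353 with a replicate left out. For SLR10 against pppNS, Oas1c gave -0.0573 (edgeR), -0.123 (named genes), -0.0241 (without pppNS replicate 1) and -0.393 to 0.493 with a replicate left out, and Oas1b -0.128 to 0.437. For SLR14 against pppNS, Oas1c gave -0.139 to 0.748. Low levels limit Oas1e most, at 3 reads in each vehicle library.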
